A study of Mus musculus with 8 samples.

Results

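The genes Fos, Fosb, Fosl1, Fosl2, Jun, Junb, Jund and Atf3, which encode subunits of the transcription factor AP-1, were followed in IMCD cells, a mouse kidney line derived from the inner medullary collecting duct, kept with or without added NaCl. The 8 genes were taken by symbol from 15288 genes in the deposited count table, by a rule that uses no measured value. All 8 passed the filter on low counts, as did 14024 genes in all. Cells of this single line were grown to confluency in DMEM with serum and then kept for 12 h in serum-free DMEM. Both groups therefore went without serum. The control group (n = 4 libraries, replicates 1 to 4) received no added NaCl, and the NaCl group (n = 4 libraries, replicates 5 to 8) received 100 mmol NaCl, an amount the labels give without a volume. Genotype and passage were not given in the sources used here. Nothing in the labels says that the libraries came from separate cultures, so p-values measure the spread between these libraries, which may be technical.

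AP-1 is a dimer of basic leucine zipper proteins. FOS proteins (FOS, FOSB, FOSL1 or FRA-1, and FOSL2 or FRA-2) bind DNA as partners of a JUN protein, whereas JUN, JUNB and JUND can also pair with each other, and ATF3 is a stress-induced relative that pairs with JUN proteins. Fos and Jun are classical immediate early genes whose transcripts are made within minutes of a stimulus and decay quickly, while Jund is broadly expressed in resting cells. MAP kinases, among them the JNK and p38 kinases that hypertonic medium is known to activate, phosphorylate AP-1 proteins and the factors that drive their genes.

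Libraries held between 35.29 and 47.57 M counts, the lowest in NaCl replicate 5 and the highest in control replicate 1. Of 14 collecting duct and epithelial markers, the water channel gene Aqp2 had 0 to 3 counts in control and 8 to 15 in NaCl libraries, and the E-cadherin gene Cdh1 had at most 30 counts in any library. The summed level of these markers was 1146 to 1444 CPM (counts scaled to a common library size, as in the fit) in control and 2120 to 2345 CPM in NaCl libraries. Of 12 tested members, 6 were called higher and 1 lower, against 16.9% and 17.2% of all genes tested. Cdh16 held the largest part of the sum, at 639 ± 77.3 CPM in control and 1380 ± 69.8 CPM in NaCl libraries (SD, n = 4 each). Krt18, at 217 ± 25.9 and 205 ± 19.2 CPM, was not called. Fibroblast markers summed to 3113 to 3616 CPM in control and 2805 to 3239 CPM in NaCl libraries (1 of 5 called higher, 2 lower), and proximal tubule markers to 162 to 205 and 155 to 177 CPM (0 of 2 called). Leukocyte markers summed to 13.0 to 17.9 CPM in control and 21.3 to 26.1 CPM in NaCl libraries, with 1 of 3 called, Ptprc, at 150 to 192 against 503 to 561 counts. Intercalated cell markers summed to 1.45 to 2.22 CPM in control and 0.194 to 0.449 CPM in NaCl libraries (Atp6v0d2, 1 of 1 tested, called lower), and endothelial markers to 0.356 to 0.870 and 0.357 to 0.804 CPM (0 of 1 called). The part of these markers in the AP-1 values was not tested, and in bulk RNA fewer cells of a type and less RNA per cell cannot be told apart.

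With NaCl, transcripts of Fosl1 fell by 52.0%, to a fold of 0.480 of control. Jun and Atf3 fell by smaller amounts, to folds of 0.835 and 0.823, and Jund rose to a fold of 1.15. The remaining 4 genes, Fos, Fosb, Fosl2 and Junb, did not pass the test. Calls were made at an adjusted p under 0.05 in edgeR's quasi-likelihood test over all genes, and 34.1% of genes tested passed it in either direction, 16.9% higher and 17.2% lower with NaCl. The members' count was 4 of 8 called, 1 higher and 3 lower. All 4 libraries of a group lay above all 4 of the other for 3 of 8 members (Fosl1 and Jun lower, Jund higher), where 33.4% of genes tested showed such a separation, 16.5% with NaCl higher and 16.9% with NaCl lower. The median log2 fold change of the 8 genes was -0.26, against 0.0029 over all genes tested.

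**Figure D1:**
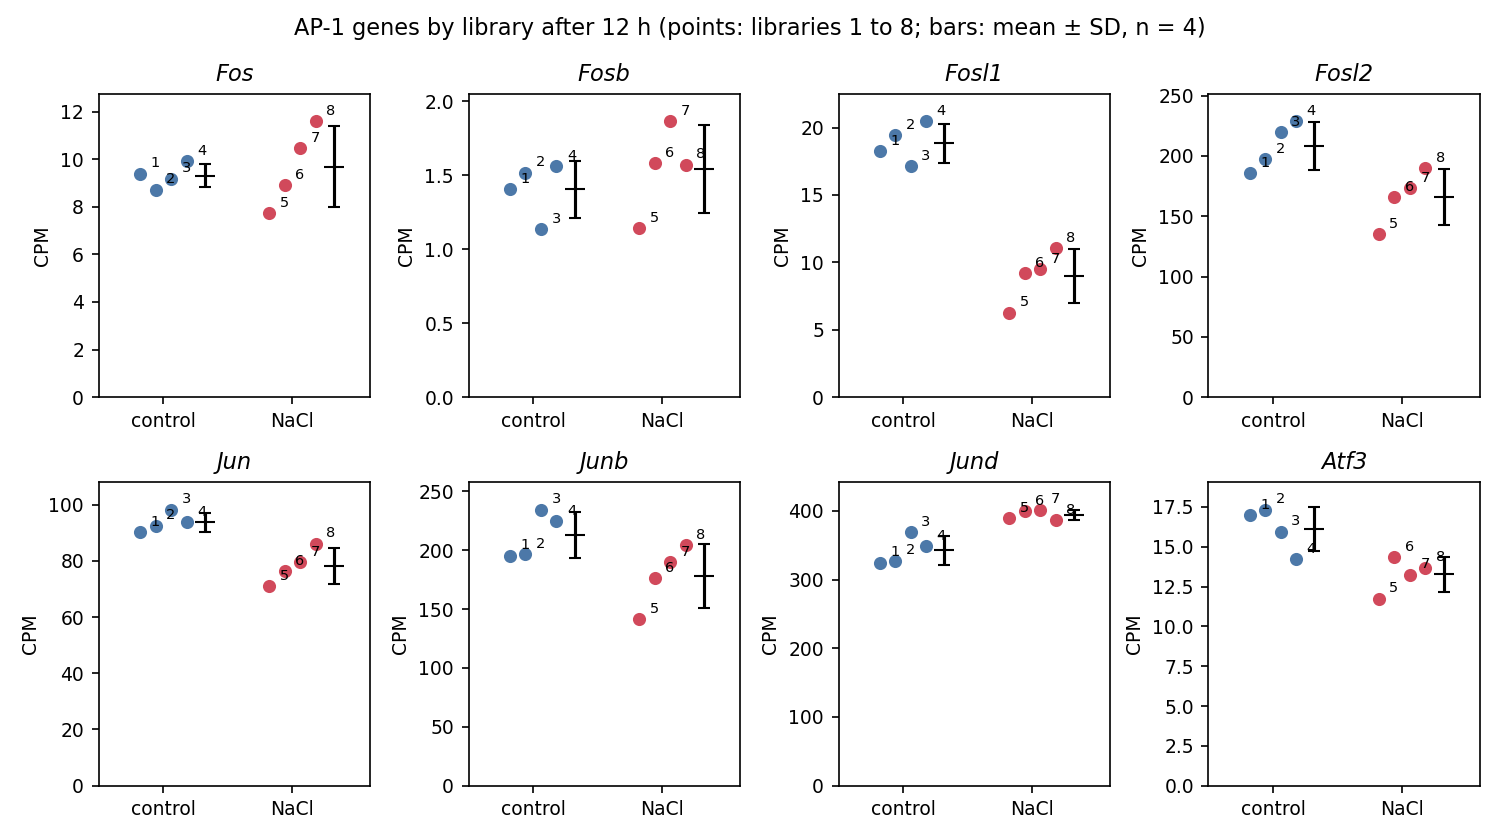
Level of each AP-1 gene in CPM (vertical axes from 0) in the control libraries 1 to 4 (blue) and the NaCl libraries 5 to 8 (red), with bars for mean and SD (n = 4). For Fosl1 the 4 NaCl libraries sit between 6.28 and 11.1 CPM, below the lowest control at 17.2 CPM, while for Fos the groups overlap.

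Among the members, the JUN genes share a compact structure, since Jun, Junb and Jund have 1 exon in their longest annotated transcript and the other 5 members have 4. The promoter regions were compared for 7 of the members (RefSeq, GRCm38.p6; Fosl1 was not matched), over the 250 bases before the start of transcription. None of the 7 windows, searched on both strands, held the AP-1 site TGANTCA (6.75% of 32851 promoters did) or the full cyclic AMP response element TGACGTCA (1.55%). Nor did any hold the core of the serum response element known as the CArG box (1.47%) or the tonicity element TonE (4.31%). Bases further upstream were not searched. The looser form TGANNTCA, which includes the full cyclic AMP response element, was found in Jun and Jund, 2 of 7, and in 11.9% of all promoters. The half-site TGACG, chosen after the sequences were seen and part of the full element, was found in Fos, Fosb, Junb and Atf3, 4 of 7, and in 17.8% of all promoters. The windows follow the RefSeq starts, which for 3 genes lie far from the GENCODE start of the gene. The RefSeq start of Jund lies 1210 bases upstream of it, that of Fosl2 671 bases inside the gene, with all 250 bases of the window in GENCODE exons, and that of Atf3 34706 bases inside the gene. In Fosb and Junb the starts differ by 6 and 30 bases. A match is a description of the letters, and its part in the measured levels was not tested.

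The windows of Jun, a gene called lower, and of Fos, which was not called, are shown 5′ to 3′ because in these 2 genes the RefSeq and GENCODE starts coincide. Capitals mark TGANNTCA in Jun, 45 to 38 bases before the start, and TGACG in Fos, 129 to 125 and 66 to 62 bases before the start. The Jun window is GRCm38.p6 chr4:95052223-95052472, minus strand, and the Fos window is chr12:85473640-85473889, plus strand.
Jun: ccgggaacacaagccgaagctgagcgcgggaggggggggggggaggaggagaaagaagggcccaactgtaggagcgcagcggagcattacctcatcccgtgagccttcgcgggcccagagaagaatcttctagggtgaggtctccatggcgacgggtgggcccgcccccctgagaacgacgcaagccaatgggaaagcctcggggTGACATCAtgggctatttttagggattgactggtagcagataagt
Fos: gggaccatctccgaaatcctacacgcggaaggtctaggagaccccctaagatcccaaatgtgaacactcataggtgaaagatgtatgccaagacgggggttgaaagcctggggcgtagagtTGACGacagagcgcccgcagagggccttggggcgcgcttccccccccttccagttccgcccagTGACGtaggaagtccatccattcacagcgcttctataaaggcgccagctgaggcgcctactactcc

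Among the FOS genes, Fosl1 encodes a partner without the strong activation domain of FOS. Replicates are given in the order of their numbers, 1 to 4 for control and 5 to 8 for NaCl. Its level was 18.3, 19.4, 17.2 and 20.5 CPM in the 4 control libraries (replicates 1 to 4) and 6.28, 9.22, 9.50 and 11.1 CPM with NaCl. Every NaCl library was below every control, and NaCl replicate 5 was the lowest. The mean fell from 18.8 ± 1.44 to 9.01 ± 1.99 CPM (mean ± SD over 4 libraries per group). The log2 fold change was -1.06 with an SE of 0.13, and its adjusted p in edgeR was 4.21e-05. Of the 2418 genes called lower, 140, Fosl1 included, had a fold change at least this low. Leaving out each library in turn gave log2 fold changes between -1.17 and -0.92. Exons of Ccdc85b, a gene on the opposite strand, cover 57.2% of the exon bases of Fosl1 (ENSMUSG00000024912, GRCm38 chr19:5447547-5455946, plus strand). The strandedness of the counting was not given in the sources used here. It is therefore not known whether reads from the 2 genes were told apart where they overlap. Ccdc85b, at 44.6 ± 2.17 CPM in control and 45.4 ± 2.01 CPM in NaCl libraries (SD, n = 4 each), was not called (log2 fold change 0.03, edgeR adjusted p = 0.728).

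Fosl2, the other FRA gene, had the highest level of the FOS genes, also per exon length. Its level was 186, 197, 219.8 and 229 CPM in the controls and 135, 166, 173 and 189.7 CPM with NaCl. NaCl replicate 8 lay above the lowest control, so the groups overlapped. The log2 fold change was -0.32 (SE 0.11), with a 95% interval of the fold from 0.662 to 0.963, and the edgeR adjusted p was 0.0668. The call depended on the setting: the adjusted p was 0.0246 with DESeq2, 0.0438 with library totals alone, 0.0343 without NaCl replicate 5 and 0.0272 without NaCl replicate 8.

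Fos itself, whose promoter window holds the half-site TGACG, was measured at 9.39, 8.73, 9.18 and 9.91 CPM in the controls and at 7.73, 8.92, 10.5 and 11.6 CPM with NaCl. The NaCl libraries lay on both sides of the controls. The log2 fold change was 0.06 with an SE of 0.11 (adjusted p in edgeR 0.726), with a 95% interval of the fold from 0.884 to 1.23. Without NaCl replicate 8 its sign turned, to -0.04. Fosb, a close relative of Fos, had between 41 and 77 counts per library, or 1.40, 1.52, 1.14 and 1.56 CPM in control and 1.14, 1.58, 1.87 and 1.57 CPM in NaCl libraries. The groups overlapped, and the log2 fold change was 0.14 with an SE of 0.22 (adjusted p in edgeR 0.68). The 95% interval of the Fosb fold ran from 0.794 to 1.53. Leaving out 1 library moved the Fosb log2 fold change between 0.03 (without NaCl replicate 7) and 0.25 (without NaCl replicate 5).

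Among the JUN genes, Jun, the founding member, whose promoter window holds TGANNTCA, was measured at 90.3, 92.6, 98.3 and 93.9 CPM in the controls. With NaCl it stood at 70.9, 76.5, 79.6 and 86.1 CPM. All NaCl libraries were below all controls. The mean fell from 93.8 ± 3.35 to 78.3 ± 6.35 CPM (mean ± SD over 4 libraries per group). The log2 fold change was -0.26 with an SE of 0.051, and its adjusted p in edgeR was 9.50e-04. Exons of the antisense gene Junos overlap 7.28% of the exon bases of Jun (ENSMUSG00000052684, GRCm38 chr4:95049034-95052222, minus strand), and Junos had 22 to 70 counts per library.

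Junb, which encodes a JUN protein that can hold back JUN activity, showed a log2 fold change close to that of Jun but a wider spread. Its level was 196, 197, 235 and 225 CPM in the controls and 142, 176, 189.7 and 205 CPM with NaCl. NaCl replicate 8 lay above control replicates 1 and 2, so the groups overlapped. Its log2 fold change was -0.26 with an SE of 0.12 (adjusted p in edgeR 0.16), with a 95% interval of the fold from 0.683 to 1.03. Without NaCl replicate 5 the value was -0.16. Exons of Prdx2 on the opposite strand overlap 7.52% of its exon bases, and Prdx2, at 379 ± 17.4 CPM in control and 382 ± 19.7 CPM in NaCl libraries (SD, n = 4 each), was not called.

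Jund was the single member called higher. It was measured at 325, 327, 369 and 349 CPM in the controls and at 389.7, 399, 402 and 386 CPM with NaCl. Every NaCl library was above every control. The mean rose from 343 ± 20.8 to 394 ± 7.43 CPM (mean ± SD over 4 libraries per group). Its log2 fold change was 0.20 with an SE of 0.040, and its adjusted p in edgeR was 8.18e-04. Exons of the antisense gene Gm11175 overlap 52.6% of the exon bases of Jund (ENSMUSG00000071076, GRCm38 chr8:70698949-70700616, plus strand). Gm11175 was itself called higher, from 2.13 ± 0.162 to 3.32 ± 0.687 CPM (SD, n = 4 each; log2 fold change 0.64, edgeR adjusted p = 0.00911). The call of Gm11175 was lost in 1 of 19 alternative settings of the processing. Without the strandedness of the counting, it is not known whether reads in the shared bases were told apart. The part of Gm11175 in the Jund counts was not tested.

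Atf3, known as a gene of the integrated stress response, was measured at 17.0, 17.3, 15.9 and 14.2 CPM in the controls and at 11.7, 14.4, 13.3 and 13.7 CPM with NaCl. The groups overlapped through control replicate 4 and NaCl replicate 6. The mean fell from 16.1 ± 1.39 to 13.3 ± 1.11 CPM (mean ± SD over 4 libraries per group). Its log2 fold change was -0.28 with an SE of 0.085, and its adjusted p in edgeR was 0.0164. The call was lost without control replicate 2 (adjusted p = 0.0565) and without NaCl replicate 5 (adjusted p = 0.0537).

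**Figure D2:**
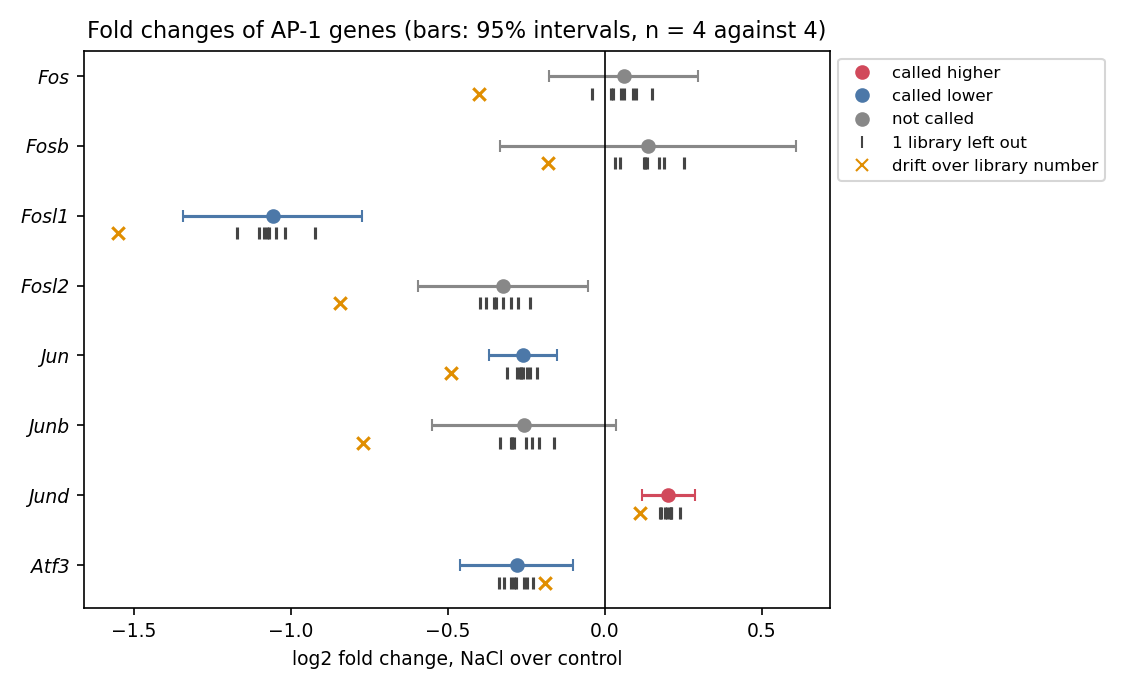
Log2 fold change of each AP-1 gene (NaCl over control, horizontal axis) with its 95% interval, with the values after leaving out 1 library (ticks) and with the number of the library, 1 to 8, fitted as a linear drift (crosses) drawn under it. The crosses for Fos at -0.40 and Fosb at -0.18 lie on the other side of 0 from the values without drift, and the cross for Fosl2 lies at -0.84.

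Several members were low or high in the same libraries of a group. NaCl replicate 5, the library with the fewest counts, held the lowest CPM of the NaCl group for 7 of 8 members, Jund being the exception. NaCl replicate 8 held the highest for 5 members, Fos, Fosl1, Fosl2, Jun and Junb. In the control group, replicate 1 was lowest for 4 members (Fosl2, Jun, Junb and Jund) and replicate 4 highest for 4 (Fos, Fosb, Fosl1 and Fosl2). Between NaCl libraries the coefficient of variation was 22.1% for Fosl1, 19.3% for Fosb, 17.6% for Fos, 15.1% for Junb and 13.8% for Fosl2, whereas counting error alone gives 5.41%, 13.0%, 5.16%, 1.20% and 1.24%. The median over 10111 genes whose log2 CPM averaged at least 3 was 4.59% in the NaCl and 4.92% in the control group. Jund, with 1.88%, was the steadiest member with NaCl and varied by 6.06% in control. For Fosb the spread in control was 13.6%, with a counting error of 12.9%.

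**Figure D3:**
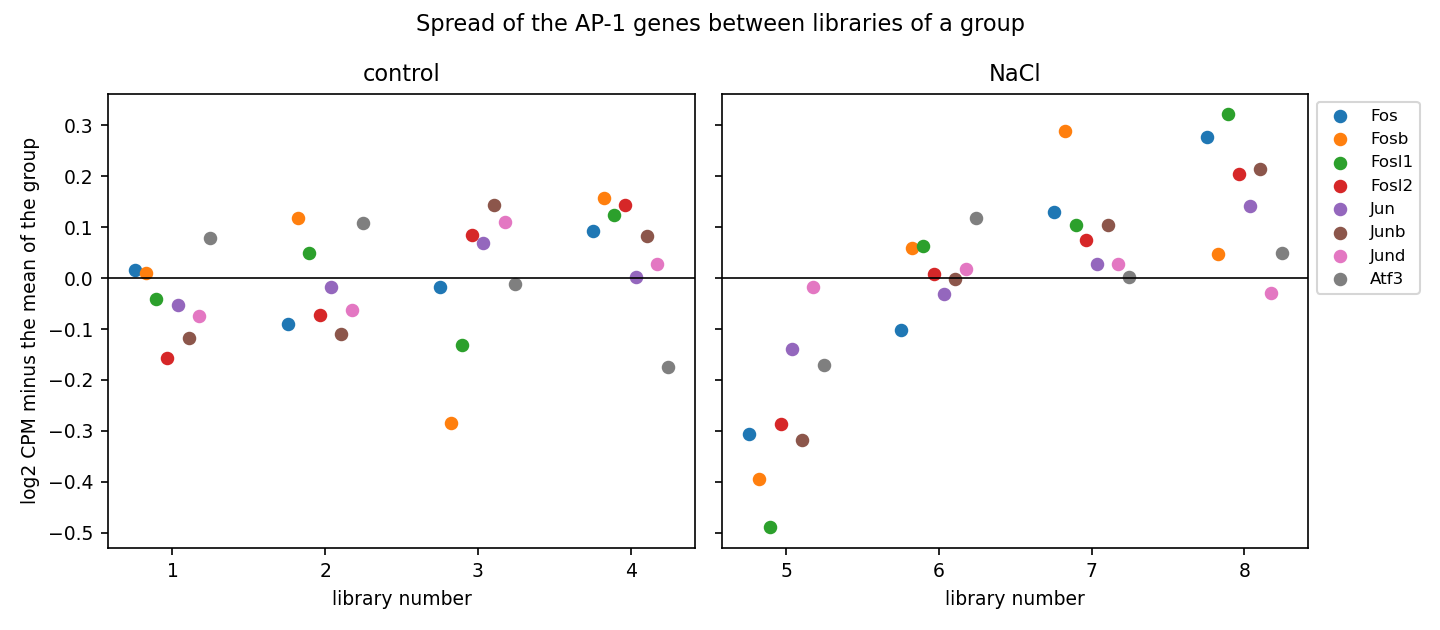
Log2 CPM of each AP-1 gene minus the mean of its group (vertical axis) by library number (horizontal axis), for the control and the NaCl group. In NaCl replicate 5 the points of all members lie below 0, and Jund lies closest to 0.

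The calls changed when the library number was entered in the fit, and the cause was not tested. The number is ordered like the groups, and the labels do not say what it records. With the number entered as a covariate after centring by group, Fosl2 (log2 fold change -0.33, edgeR adjusted p = 2.43e-10) and Junb (-0.27, adjusted p = 0.00237) were called lower as well. With the number fitted from 1 to 8 as linear drift, Fosl2 (-0.84, adjusted p = 7.10e-12), Junb (-0.77, adjusted p = 5.80e-04), Jun (-0.49, adjusted p = 5.94e-06) and Fosl1 (-1.55, adjusted p = 3.28e-07) were called lower. In the same fit Jund (0.11, adjusted p = 0.21) and Atf3 (-0.19, adjusted p = 0.454) were not called, and Fos (-0.40, adjusted p = 0.138) and Fosb (-0.18, adjusted p = 0.848) changed sign without passing the test. A drift along the numbers and the treatment cannot be fully told apart in this design.

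Levels were compared between genes per length, as CPM per kilobase of merged exons in the GENCODE M21 annotation. In control libraries the order was Jund (205 ± 12.5), Junb (92.5 ± 8.61), Jun (29.4 ± 1.05), Fosl2 (21.5 ± 2.06), Fosl1 (9.27 ± 0.707), Atf3 (7.49 ± 0.647), Fos (3.95 ± 0.209) and Fosb (0.225 ± 0.0306 CPM per kilobase; SD, n = 4). No neighbours in this order had overlapping ranges. With the length of the longest transcript in place of merged exons, Fosl2 (31.8 ± 3.05) came before Jun (29.4 ± 1.05 CPM per kilobase; SD, n = 4 each), and their ranges overlapped. With NaCl, Fosl1 (4.43 ± 0.981 CPM per kilobase) came after Atf3 (6.16 ± 0.514) and had a range that overlapped that of Fos (4.11 ± 0.724; SD, n = 4 each), and the other neighbours stayed apart. With the longest transcript, Fosl2 (25.4 ± 3.51) and Jun (24.5 ± 1.99 CPM per kilobase; SD, n = 4 each) overlapped with NaCl as well, as did Atf3 and Fosl1. The 3 JUN genes summed to 308 to 354 CPM per kilobase in control and 317 to 348 in NaCl libraries, which overlapped. The 4 FOS genes summed to 32.4 to 38.2 CPM per kilobase in control and 20.5 to 30.2 in NaCl libraries, without overlap.

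The makeup of both families also differed between the groups. Of the summed FOS level per length, Fosl1 held 26.6 ± 1.92% in control and 17.0 ± 1.31% in NaCl libraries, Fosl2 held 61.4 ± 2.31% and 66.2 ± 1.38%, and Fos held 11.3 ± 0.652% and 15.8 ± 0.739% (SD, n = 4 each). For each of these 3 genes the share ranges of the groups did not overlap, although the levels of Fosl2 and Fos were not called. Of the summed JUN level, Jund held 62.8 ± 0.502% in control and 69.96 ± 2.90% in NaCl libraries, Junb held 28.2 ± 0.804% and 22.8 ± 2.60%, and Jun held 8.998 ± 0.318% and 7.25 ± 0.354%, again without overlap. Within the NaCl group the Jund share was highest in replicate 5, at 73.6%, and lowest in replicate 8, at 66.6%. Shares within a family are not independent, because a lower level of any gene raises the shares of the rest. They are descriptions and were not tested.

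**Figure D4:**
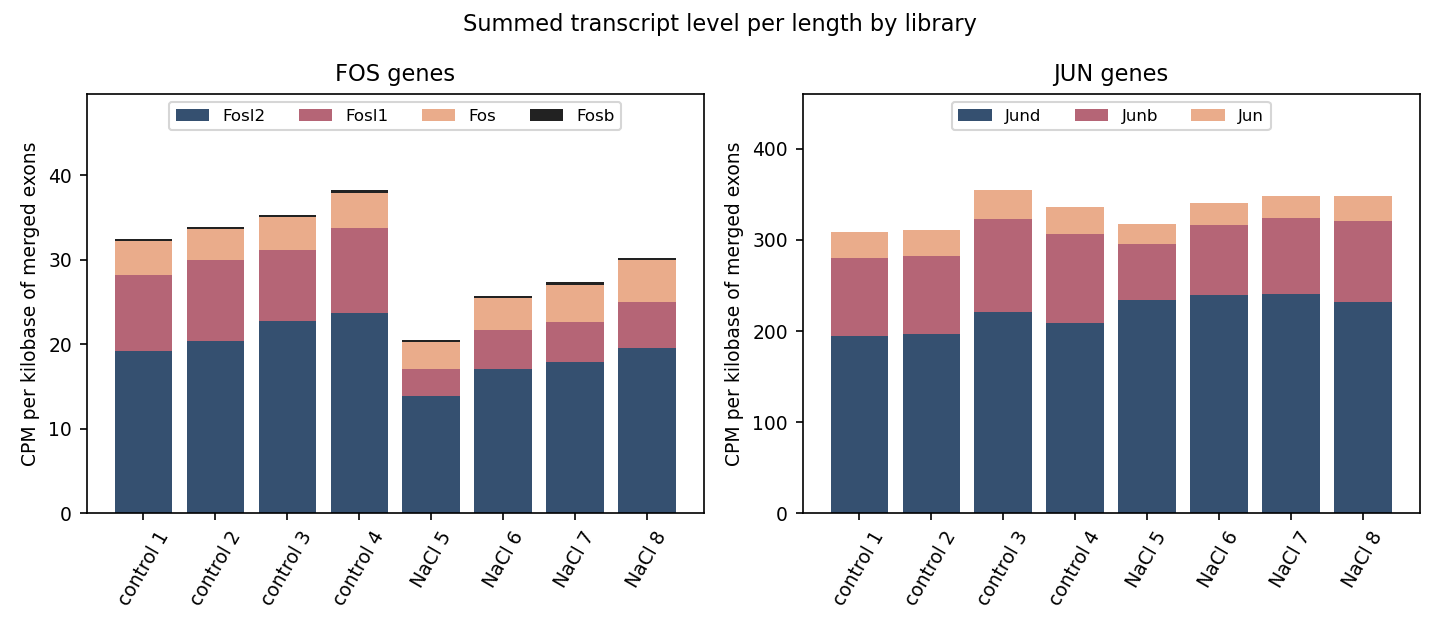
Stacked level of the FOS genes (left) and the JUN genes (right) in CPM per kilobase of merged exons (vertical axes from 0) in each library. The FOS stacks of the NaCl libraries reach 20.5 to 30.2, below the lowest control stack at 32.4, and the JUN stacks of the groups overlap.

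Genes linked to AP-1 by textbook role were examined in lists. Over all genes tested, 34.1% were called, 16.9% higher and 17.2% lower with NaCl. Of 13 genes for other basic leucine zipper partners and relatives, 11 were tested and 1 was called, higher, and the median log2 fold change was -0.03 (Batf and Nrl were not analysed here). The called gene was Maf, which encodes a large MAF factor and rose from 1.48 ± 0.153 to 2.98 ± 0.369 CPM (SD, n = 4 each), with log2 fold change 1.005 (edgeR adjusted p = 3.02e-04). With the linear drift its log2 fold change was 0.948 (adjusted p = 0.0669). Atf7, a relative of Atf2 with a log2 fold change of -0.12 (adjusted p = 0.0644), was called as well without control replicate 1 (0.0469), NaCl replicate 7 (0.0363) or NaCl replicate 8 (0.0382), which brought the count to 2. Atf2 and Jdp2, whose proteins pair with JUN, had log2 fold changes of 0.02 and -0.05 and were not called.

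In the MAP kinase cascade, 3 of 24 genes were called higher and 2 lower, and the median log2 fold change was 0.05. Map3k11, which encodes a kinase upstream of JNK, rose from 89.2 ± 3.76 to 105.6 ± 4.43 CPM (SD, n = 4 each; log2 fold change 0.24, edgeR adjusted p = 2.45e-04). Mapk7, which encodes ERK5, rose by 0.24 on the log2 scale (adjusted p = 0.00291) and Map2k7, a JNK-activating kinase gene, by 0.13 (adjusted p = 0.0155). Map2k6, which encodes an activator of p38, fell from 18.6 ± 1.78 to 14.3 ± 1.52 CPM (SD, n = 4 each; log2 fold change -0.39, edgeR adjusted p = 0.00286), and Mapk9, which encodes JNK2, had a log2 fold change of -0.14 (adjusted p = 0.0202). The call of Map2k7 was lost without control replicate 2 (adjusted p = 0.0695) or NaCl replicate 8 (0.0571), and that of Mapk9 without control replicate 2 (0.0572) or NaCl replicate 6 (0.0505). With the linear drift over the library number, the log2 fold change of Mapk7 was 0.07 (adjusted p = 0.684). Map2k7 (0.111, adjusted p = 0.297) and Mapk9 (-0.109, adjusted p = 0.411) also missed the threshold.

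Of 12 genes for factors that drive Fos and Jun transcription, 11 were tested, 3 were called higher and 1 lower, and the median log2 fold change was 0.0016 (Mef2c was not analysed here). Crem, which encodes activators and repressors at the cyclic AMP response element, rose from 16.8 ± 1.04 to 25.02 ± 0.465 CPM (SD, n = 4 each; log2 fold change 0.57, edgeR adjusted p = 2.70e-06). Mrtfa, a coactivator of SRF, rose by 0.25 on the log2 scale (adjusted p = 0.00135) and Mef2a by 0.16 (adjusted p = 0.00326). Atf1 had a log2 fold change of -0.13 (adjusted p = 0.0433). That call was lost when any of control replicates 1, 2 or 3 or NaCl replicates 6, 7 or 8 was left out (adjusted p between 0.0642 and 0.128). The linear drift gave 0.10 for Mrtfa (adjusted p = 0.44) and for Atf1 (adjusted p = 0.369). Srf and Elk1 had log2 fold changes of -0.03 and -0.05 and were not called.

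Among 12 genes for the turnover of FOS and JUN products and for cofactors, 1 was called higher and 2 lower, and the median log2 fold change was 0.0027. Cop1, a ubiquitin ligase gene whose product can target JUN, rose from 82.7 ± 2.81 to 96.9 ± 2.65 CPM (SD, n = 4 each; log2 fold change 0.23, edgeR adjusted p = 2.06e-04). Zfp36l1 and Zfp36l2 encode proteins that bind AU-rich elements and promote the decay of messenger RNA. Zfp36l1 fell from 233 ± 24.9 to 178 ± 14.7 CPM (SD, n = 4 each; log2 fold change -0.39, edgeR adjusted p = 0.00674), and Zfp36l2 by 0.20 on the log2 scale (adjusted p = 0.00211). With the linear drift Zfp36l1 had a value of -0.77.

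Of 25 known AP-1 target genes, 24 were tested, 3 were called higher and 9 lower, and the median log2 fold change was -0.08 (Mmp10 was below the filter on low counts). Lif, a cytokine gene, fell from 14.9 ± 0.949 to 8.57 ± 1.71 CPM (SD, n = 4 each; log2 fold change -0.79, edgeR adjusted p = 8.77e-05). Timp1, an inhibitor of matrix metalloproteinases, fell from 55.5 ± 2.05 to 32.4 ± 1.29 CPM (SD, n = 4 each; log2 fold change -0.78, edgeR adjusted p = 3.09e-09). Against these, the chemokine gene Ccl2 rose from 43.0 ± 11.0 to 95.9 ± 12.2 CPM (SD, n = 4 each; log2 fold change 1.15, edgeR adjusted p = 0.00582). The cytokine gene Il11 rose by 0.72 on the log2 scale (adjusted p = 0.0117). The third higher target had a log2 fold change of 0.42, and 6 further lower targets had values between -0.70 and -0.24. The linear drift moved the log2 fold changes to -1.34 for Lif, 2.01 for Ccl2 and 1.26 for Il11.

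**Figure D5:**
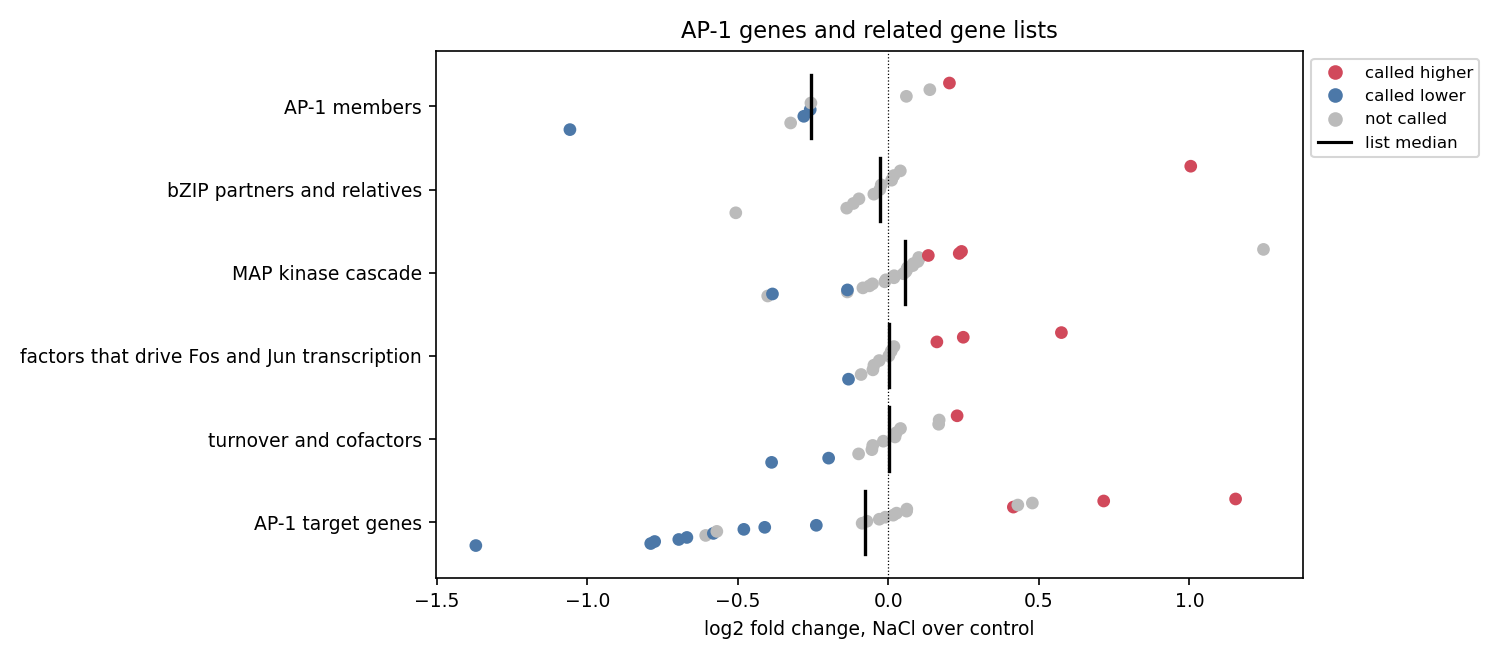
Log2 fold change (NaCl over control, horizontal axis) of each tested gene of the AP-1 members and the related lists, coloured by call, with a black line at each list's median. The median is -0.26 for the 8 AP-1 members and -0.08 for the 24 target genes tested, and the medians of the remaining lists lie between -0.03 and 0.05.

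The genes whose profiles over the 8 libraries were most like those of the members with the lowest and the highest fold change were found among 10110 genes. Likeness was the root mean square difference of log2 CPM relative to the control mean. For Fosl1 these were the metallothionein gene Mt2 (0.141), Depp1 (0.184) and Dusp5, a phosphatase gene for ERK (0.185), with log2 fold changes of -0.995, -1.03 and -1.12. For Jund they were Rnf44 (0.0233), Ubl7 (0.0249) and Zfp703 (0.0266), with log2 fold changes of 0.19, 0.22 and 0.21. These genes were picked for their likeness, so their fold changes are a description.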

How the data were processed

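Bulk RNA sequencing of 8 libraries, 4 per group, was analysed. Raw counts per Ensembl gene were deposited by the authors, and a second deposited table held a normalized signal, which is each raw count over 1 factor per library. Per the submitters' processing notes, Trim Galore 0.6.7, STAR, DESeq2 1.34.0 and the build mm10 were used; the counter and strandedness were not given in the sources used here. The lowest total of a gene was 19 counts, and no label records a filter.

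Counts were tested in R 4.3.3 with edgeR 4.0.16 (filterByExpr at a minimum count of 10, TMM, robust quasi-likelihood fit and F test, Benjamini-Hochberg adjustment over 14024 genes), and the code was tested on simulated data. CPM used TMM-scaled totals, log2 CPM a prior count of 2. Alternatives used DESeq2 1.42.0, limma 3.58.1 (voom, and log2 of the deposited signal plus 1), other scalings and filters, a threshold of 0.01, the library number as a covariate, and each library left out.

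Lengths, overlaps and coordinates came from GENCODE M21 (GRCm38, the same assembly as mm10), and promoters from RefSeq. With 4 libraries per group, depth limits Fosb most. The rule for the members uses gene symbols alone, but the members and lists were chosen with earlier results of these data known, so the choice was not independent of them. Named were the 8 members, up to 5 called genes per related list by absolute log2 fold change, and the 3 nearest profiles of 2 members. Genes overlapping a member, Cdh1, Cdh16, Atp6v0d2 and a few list genes that were not called, were added after the data were seen. A gene that the naming rule takes is not reported here.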

Additional observations from a re-analysis of the deposited data

Results flagged for a closer look

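In 5 of 78 groups of 4 values a single library lay apart from the rest, where chance gives about 1 in 20, or 3.9. Depth was one such value: control replicate 1 had 47.57 M counts (other controls 41.77 to 42.73 M), and NaCl replicate 5 had 35.29 M (other NaCl libraries 41.37 to 42.39 M). Mapk7 lay high in control replicate 4 at 36.18 CPM, with 32.99 to 33.18 CPM in the remaining controls. It lay low in NaCl replicate 5 at 36.63 CPM, with 40.69 to 41.27 CPM in the remaining libraries of that group. Leaving out the former gave a Mapk7 log2 fold change of 0.27, as did leaving out the latter, against 0.24 over all 8 libraries. Mef2a lay high in NaCl replicate 5 at 120.6 CPM, with 111.5 to 112.7 CPM in the remaining libraries of the group. Its log2 fold change of 0.16 became 0.13 when NaCl replicate 5 was left out. No AP-1 gene had a library apart by this measure in either group.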

How the results depend on the processing

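The 8 AP-1 genes kept their direction in 149 of 152 alternatives and their side of the threshold as well in 136. For each gene the alternative with a threshold of 0.01 reused the main fit, so its direction could not change there. Fosl1 and Jun were called lower in all 19 alternatives run. The number of called members was between 3 and 6. Direction turned for Fos with the linear drift over the library number (-0.40) and without NaCl replicate 8 (-0.041), and for Fosb with the drift (-0.18). It also turned for Atf1 (0.10), Junos (-0.21) and Prdx2 (-0.19) with the drift, for Ccdc85b without control replicate 2 (-0.0068), for Junos without NaCl replicate 6 (-0.0040), and for Prdx2 without control replicate 1 (-0.016) or NaCl replicate 8 (-0.024). Over the fits with a library left out, values ranged from -0.041 to 0.151 for Fos, -0.0068 to 0.0521 for Ccdc85b, -0.0040 to 0.397 for Junos and -0.024 to 0.0379 for Prdx2. The cause was not tested.

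The number of genes called, 4789, was 3145 at an adjusted p under 0.01, 3382 with the drift (2191 of them among the 4789), 6030 with the number centred, and 4071 to 4634 with a library left out. Called basic leucine zipper relatives were 2 with the drift, both lower (Atf7 at -0.31 and Maff at -0.71), where Maf was not called. With the number centred they were 2, 1 higher and 1 lower, and with a library left out 1 to 2. Called MAP kinase cascade genes were 11 with the number centred and 3 at an adjusted p under 0.01. Called turnover genes were 5 with the drift.

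Dividing by the longest transcript in place of merged exons turned the order of Jun and Fosl2 in both groups and changed the shares of the family sums by construction. In control and NaCl libraries the share became 9.47 and 13.0% for Fos, 0.798 and 1.16% for Fosb, 21.7 and 13.6% for Fosl1, 68.0 and 72.2% for Fosl2, 8.36 and 6.82% for Jun, 33.3 and 27.3% for Junb, and 58.3 and 65.9% for Jund. No paired analysis was possible because the groups share no replicate number.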
